A study of Mus musculus with 6 samples.

Results

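The histone deacetylase family of mouse 2-cell embryos is described here through 10 genes, Hdac1 to Hdac8, Hdac10 and Hdac11, in control embryos and in embryos whose lipid droplets had been removed at the zygote stage. The genes were chosen by symbol, and the comparison of the control with the delipidated libraries was already known, in particular that Hdac11 had no count in the delipidated group. The difference of each of these 10 genes between the groups is therefore given as a description without a test. They are 10 of 48967 genes covered by the count tables. All 10 had at least 1 count in at least 1 library, and 9 were among the 16020 genes that passed the filter on low counts, with Hdac7 left out. Hdac11 passed that filter through its counts in the control libraries alone. Hdac9, a class IIa gene outside the choice, and Gm10093, a pseudogene copy of Hdac1, are given beside them.

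RNA was sequenced from 6 libraries, 3 per group, each a pool of 3 embryos on day 2. All embryos were wt and of the strain F1 (C57Bl/10 X CBA/H), and all were cultured as zygotes in KSOM medium free of fatty acids from 0.5 dpc to 2.0 dpc. Delipidated zygotes had been treated with cytochalasin B at 50 µg/mL, spun at 4200 × g and at 9500 × g for 10 min each, the second time with 50 µg/mL sucrose added, and opened with a laser so that the displaced droplets could be drawn into a pipette of 12 µm inner diameter. The comparison asks which transcripts differ after droplets have been removed. The control samples are labelled as cultured zygotes, and no sham handling is described for them, so droplet removal, cytochalasin B, centrifugation and opening of the zona cannot be told apart. Assignment to the groups was random and made from a common set of embryos. The replicates are therefore separate embryo pools from that set, and p-values measure the spread between these pools. In such pools, a change in RNA per embryo and a change in the make-up of the pool cannot be told apart.

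Histone deacetylases remove acetyl groups from lysines of histones and of other proteins, and they oppose acetyltransferases. Class I enzymes are mainly nuclear and work in repressor complexes, class IIa enzymes shuttle between nucleus and cytoplasm and have little catalytic activity of their own, class IIb enzymes act largely in the cytoplasm, and Hdac11 alone forms class IV. In the early embryo they act while the maternal transcripts are cleared and the embryonic genome is switched on, and Hdac1 is known as a major deacetylase of the preimplantation embryo.

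Counts assigned to genes were 12164963, 16165958 and 12980787 in control replicates 1, 2 and 3, and 20059460, 16332103 and 14683741 in the delipidated replicates in the same order. The delipidated libraries were deeper on the whole, yet they held counts for fewer genes, with 17091, 19408 and 20158 genes against 22855, 22437 and 20582 in the control. The counts had been made per exonic part, that is, on exons divided wherever the exon borders of transcripts differ, and they were added up per gene. Reads that cross a border between parts count more than once, so these sums exceed the number of reads. CPM stands for counts per 1000000 counts on tested genes, with TMM normalization, and CPM per kb is CPM divided by the summed length of a gene's exonic parts, the scale used for levels of different genes. Coordinates are those of the files, in GRCm38/mm10.

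Markers of the labelled stage were present. Of 12 genes of 2-cell stage activation, 11 were found and tested, and their summed level was 412 ± 141 CPM for the control and 409 ± 125 CPM for the delipidated embryos (SD, n = 3 each), with Obox3 the most abundant. The 12 maternal oocyte transcripts summed to 2440 ± 608 and 2503 ± 685 CPM (SD, n = 3 each), and Tcl1 was the most abundant. Among 13 cumulus and granulosa cell genes, Foxl2 and Ptx3 were at 0 in all 6 libraries, 4 genes were tested, and the sums were 20.2, 28.5 and 82.6 CPM in the control and 11.3, 33.2 and 18.4 CPM in the delipidated libraries, with Amhr2 the most abundant in the mean. In control replicate 3, Cyp11a1 alone, which was not tested, made up 49.6 CPM of the sum. The 7 oviduct epithelium genes summed to 215, 389 and 257 CPM in the control and to 243, 293 and 187 CPM in the delipidated libraries, with Epcam the most abundant. Of these 7 genes 5 were tested, and Cdh1 had an unadjusted p under 0.05, with 125, 140.2 and 133 CPM in the control and 70.3, 88.6 and 73.8 CPM in the delipidated libraries. Embryos are known to express Epcam and Cdh1 themselves.

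By level per kb of all exonic parts, 3 of the 10 genes stood above the rest. The mean over the 6 libraries was 85.4 ± 12.4 CPM per kb (SD, n = 6) for Hdac1, 26.7 ± 8.63 CPM per kb for Hdac2 and 21.7 ± 4.34 CPM per kb for Hdac6. The next gene was Hdac5 at 2.98 ± 0.836 CPM per kb, followed by Hdac10 at 1.94 ± 0.923, Hdac8 at 1.44 ± 0.767, Hdac4 at 1.41 ± 0.589 and Hdac3 at 1.01 ± 0.637 CPM per kb. Hdac11 had 0.259 ± 0.391 and Hdac7 0.0552 ± 0.0944 CPM per kb. Neighbours in this order were separated over their whole range at only 2 steps. Hdac1 was above Hdac2 in 6 of 6 libraries, by 3.21 times in the mean, and Hdac6 was above Hdac5 in 6 of 6 libraries, by 7.26 times. Hdac2 was above Hdac6 in 4 of 6 libraries, and Hdac8 above Hdac4 in 3 of 6, so neither pair differed beyond the spread. Hdac5 was above Hdac10, and Hdac3 above Hdac11, in 6 of 6 libraries, although the ranges over all libraries overlapped. Hdac10 exceeded Hdac8, and Hdac4 exceeded Hdac3, in 5 of 6 libraries, and Hdac11 exceeded Hdac7 in 3 of 6, all with overlapping ranges.

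The order depended on which exonic parts entered. Hdac2 includes a part of 2227 bases, chr10:36993885-36996111, that held 0, 10 and 0 counts in the control and 30, 0 and 1 in the delipidated libraries, against 313, 275 and 309 and then 284, 228 and 393 on the coding part of 60 bases at chr10:36998414-36998473. When only the parts of the principal transcript were used, a setting chosen after these counts were seen, the level was 140.6 ± 20.6 CPM per kb (SD, n = 6) for Hdac1, 59.1 ± 19.4 CPM per kb for Hdac2 and 29.9 ± 5.86 CPM per kb for Hdac6. On that scale Hdac2 was above Hdac6 in all libraries except delipidated replicate 2, where the ratio was 0.906. Hdac8, at 3.47 ± 1.80 CPM per kb, and Hdac4, at 2.66 ± 1.09 CPM per kb, then stood above Hdac10, at 2.21 ± 0.961 CPM per kb. With only parts of at least 300 bases, Hdac2 was at 0.615 CPM per kb and at rank 5. By the part with most counts, Hdac2, at 1300 CPM per kb, stood above Hdac1, at 963 CPM per kb, and Hdac4, at 65.4 CPM per kb, above Hdac6, at 61.5, and Hdac5, at 53.4 CPM per kb. Both of these settings were scaled to their own library totals, so the values show an order within each setting.

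**Figure D1:**
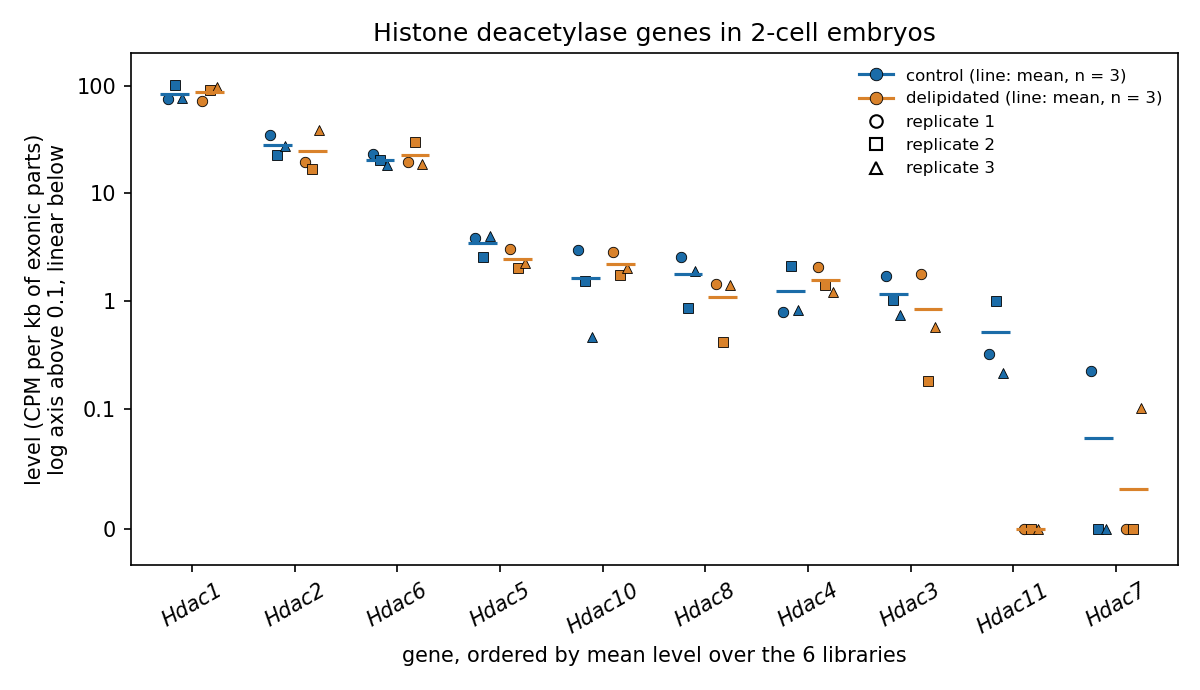
Level of each of the 10 genes in CPM per kb of exonic parts (logarithmic above 0.1, linear below) in 3 control and 3 delipidated libraries. Symbols mark replicates and lines the group means. Hdac1, Hdac2 and Hdac6 lie between 16.8 and 101 CPM per kb, and the delipidated points of Hdac11 lie at 0.

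The summed level of the 10 genes was nearly the same in both groups. It was 627, 640 and 556 CPM in the control replicates and 534, 611 and 673 CPM in the delipidated replicates, or 608 ± 45.4 and 606 ± 69.4 CPM (SD, n = 3 each). The groups overlapped, and the lowest and the highest sum were both delipidated. Of the summed level per kb, Hdac1 made up 51.7% to 65.9% over the 6 libraries, and Hdac1, Hdac2 and Hdac6 together 90.8% to 96.0%. The 4 class I genes held 75.5% to 84.9%, the 3 class IIa genes 2.22% to 4.22%, the 2 class IIb genes 12.9% to 22.1% and Hdac11 0% to 0.657%. These shares moved with the parts used, a comparison added after the data were seen. Of its settings, parts of at least 300 bases and the part with most counts had been set beforehand for the fold changes. The principal transcript had not. From the mean levels, class I held 80.2% and class IIb 16.5%, against 61.9% and 36.7% with parts of at least 300 bases, where Hdac10 has none, 91.1% and 3.02% by the part with most counts, and 83.0% and 13.0% on the principal transcript. Hdac1 alone held 59.8%, 56.5%, 38.5% and 56.9% in the same order. On all exonic parts, the lowest class I share and the highest class IIb share both belonged to delipidated replicate 2, and the highest class I share and the lowest class IIb share to delipidated replicate 3. The number of the 10 genes with any count was 10, 9 and 9 in the control and 8, 8 and 9 in the delipidated libraries.

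**Figure D2:**
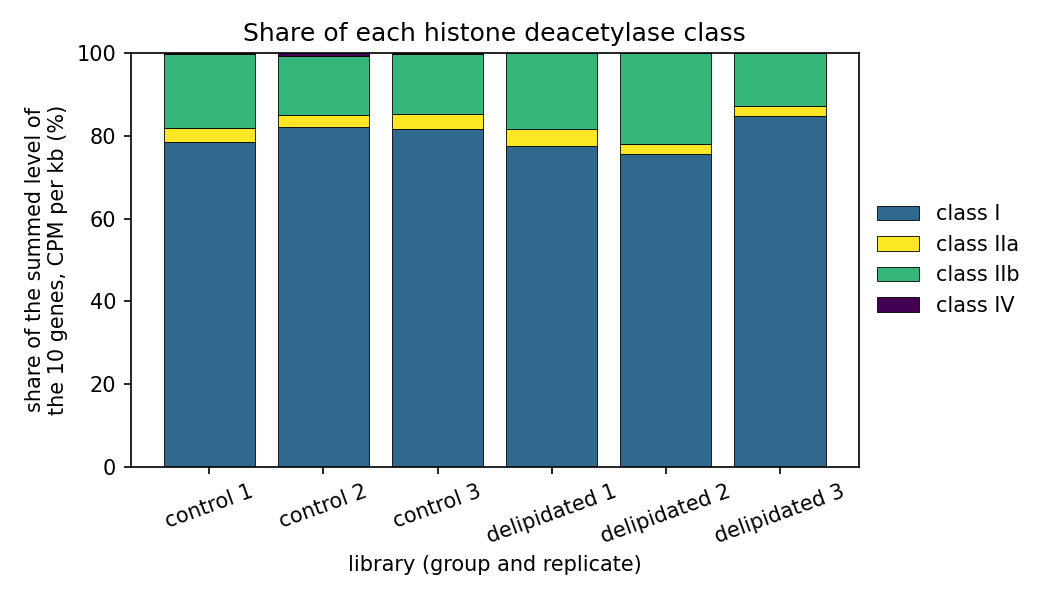
Share of each histone deacetylase class in the summed level per kb of the 10 genes (percent), on all exonic parts, for each of the 6 libraries. Class I makes up 75.5% to 84.9% of every bar, and class IV is seen in the control libraries alone, at 0.657% or less.

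Among the class I genes, Hdac1 encodes the catalytic subunit shared by the NuRD, Sin3 and CoREST complexes. It is listed as ENSMUSG00000028800 on the reverse strand of chromosome 4, from 129516104 to 129542713, with 29 parts. Its level was 259.6, 347 and 262 CPM in the control and 249.6, 313 and 335 CPM in the delipidated replicates. The groups overlapped, with the highest value in the control and the lowest in the delipidated group, and the means were 289.5 ± 50.1 and 299 ± 44.3 CPM (SD, n = 3 each). The log2 fold change, delipidated against control throughout, was 0.05 with a standard error of 0.21. With a library left out it lay between -0.04 and 0.20. Its sign was negative without control replicate 1, without control replicate 3 and without delipidated replicate 3. With parts of at least 300 bases the log2 fold change of Hdac1 was 0.43. Counts covered 23 to 27 of the 29 parts in each library, and parts that overlap coding sequence held 97.2% of them. Over the 6 libraries the coefficient of variation was 14.5%, the lowest of the 10 genes, and 33.8% of the 1290 tested genes within a 2-fold range of its mean CPM had a lower one.

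Hdac2, the close paralog that pairs with Hdac1 in the same complexes, is listed as ENSMUSG00000019777 on the forward strand of chromosome 10, from 36974544 to 37001889. Its level was 156, 102 and 124 CPM in the control and 87.0, 74.9 and 172 CPM in the delipidated replicates. Delipidated replicates 1 and 2 were below every control, whereas delipidated replicate 3 was the highest of all, so the groups overlapped. The means were 127 ± 27.1 and 111 ± 53.0 CPM (SD, n = 3 each), and the log2 fold change of -0.19 ± 0.32 (SE) became 0.03 without delipidated replicate 2 and -0.65 without delipidated replicate 3. Hdac2 varied more than most genes of a like level, with a coefficient of variation of 32.4%, and 86.3% of the 2476 tested genes within a 2-fold range of its mean CPM varied less. The ratio of Hdac1 to Hdac2, per kb, was 2.17, 4.44 and 2.73 in the control and 3.73, 5.43 and 2.52 in the delipidated replicates. It was above 1 in every library, and the groups overlapped. On the parts of the principal transcript it was again above 1 in every library, from 1.60 to 4.05.

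Hdac3, the catalytic subunit of the NCoR and SMRT complexes, is listed as ENSMUSG00000024454 on the reverse strand of chromosome 18, from 37935844 to 37954988. Its counts were 82, 69 and 40 for the control and 145, 12 and 33 for the delipidated replicates, which is 6.92, 4.17 and 3.04 CPM and 7.16, 0.737 and 2.33 CPM. Delipidated replicate 1 was the highest library and delipidated replicate 2 the lowest, and the means were 4.71 ± 1.99 and 3.41 ± 3.34 CPM (SD, n = 3 each). Counts lay on 2 to 10 of its 25 parts in a library, and in delipidated replicate 1 the neighbouring coding parts from 37945694 to 37945775 and from 37952471 to 37952546 held 33 counts each. Its log2 fold change of -0.46 ± 0.91 (SE) was 0.01 without delipidated replicate 2 and -1.62 without delipidated replicate 1, and it was -3.19 by the part with most counts and -3.22 with parts of at least 300 bases.

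Hdac8, an X-linked class I enzyme that deacetylates the cohesin subunit SMC3, is listed as ENSMUSG00000067567 on the reverse strand, from 102284639 to 102505359. Its level was 12.6, 4.17 and 9.27 CPM in the control and 7.06, 2.03 and 6.85 CPM in the delipidated replicates. The lowest value in each group was that of replicate 2, the ranges overlapped, and the means were 8.67 ± 4.23 and 5.31 ± 2.85 CPM (SD, n = 3 each). The log2 fold change was -0.70 ± 0.69 (SE) and stayed negative in all 15 alternatives, from -1.21 to -0.32. The difference between the means did not exceed the spread between the replicates.

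Of the class IIa genes, Hdac4, which binds MEF2 factors, is listed as ENSMUSG00000026313 on the reverse strand of chromosome 1, from 91928779 to 92195699. It had 12.6, 33.7 and 13.2 CPM in the control and 33.2, 22.2 and 19.3 CPM in the delipidated replicates. Control replicates 1 and 3 were below every delipidated library and control replicate 2 was above them all. The means were 19.8 ± 12.0 and 24.9 ± 7.33 CPM (SD, n = 3 each), with a log2 fold change of 0.33 ± 0.47 (SE). This was 0.95 without control replicate 2, 0.06 without delipidated replicate 1 and 1.08 by the part with most counts, and 2.19% of its counts came from parts shared with an opposite-strand gene.

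Hdac5, a class IIa enzyme exported from the nucleus after phosphorylation, lies on the reverse strand of chromosome 11, from 102194432 to 102230166, and is listed as ENSMUSG00000008855 joined with the identifier of Mir8101. Its level was 33.7, 22.4 and 34.97 CPM in the control and 26.8, 17.7 and 19.7 CPM in the delipidated replicates. Control replicates 1 and 3 were above every delipidated library, and control replicate 2 lay among them. The means were 30.4 ± 6.94 and 21.4 ± 4.76 CPM (SD, n = 3 each), and the log2 fold change of -0.50 ± 0.37 (SE) was negative in all 14 alternatives that gave a value. A further 7 of its 78 parts could not be assigned to a single gene and were left out, and they held 3, 4 and 102 counts for the control and 0, 0 and 25 for the delipidated replicates.

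Hdac7, the class IIa gene known from endothelium and lymphocytes, had 15 counts in control replicate 1, 8 counts in delipidated replicate 3 and 0 in the others. It is listed as ENSMUSG00000022475 on the reverse strand of chromosome 15, from 97792664 to 97844502. The 15 counts lay on 5 of its 47 parts with 3 counts on each, and the 8 counts on 6 parts. Hdac7 was not detectable in 4 of the 6 libraries at this depth, which is not the same as absent.

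Hdac9, the remaining class IIa gene, was not among the 10 and was tested with all other genes. It is listed as ENSMUSG00000004698 on the reverse strand of chromosome 12, from 34047580 to 34917095. Its level was 37.4, 18.2 and 11.8 CPM in the control and 12.3, 32.6 and 32.5 CPM in the delipidated replicates, and the groups overlapped. The log2 fold change was 0.20 ± 0.52 (SE), with an adjusted p of 1.00 from edgeR's quasi-likelihood test with Benjamini-Hochberg adjustment, and 3 of the 6 log2 fold changes with a library left out were negative. It was 0.79 without control replicate 1, 1.72 by the part with most counts and 1.29 with parts of at least 300 bases. Per kb of the principal transcript, Hdac9 had 2.31 ± 1.17 CPM per kb (SD, n = 6), within the spread of Hdac4 on the same scale. Its counts were uneven along the gene. From 34052301 to 34312711, over all libraries, single coding parts held 9, 6 and 11 counts and all other parts 0. Upstream of these, the 3′ UTR part at 34371497-34373826 held 253 and the coding part at 34373878-34374138 held 171. The level of Hdac9 per kb therefore depends on which of these parts enter.

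The counts of the class IIa genes lay mostly on coding parts. Counts per kb on the 3′ UTR parts, relative to the coding parts, were 0.0566 times for Hdac4, 0.00929 times for Hdac5 and 0.0838 times for Hdac9. The value of Hdac9 pools a 3′ UTR part of 4721 bases with 13 counts and another of 2330 bases with 253 counts, so it describes neither part alone. The median over 4315 tested protein-coding genes with long enough parts of both kinds was 0.142, with quartiles of 0.0524 and 0.325. Hdac5 was below all but 8.37% of these genes, with 6 counts in all libraries on 1312 bases of 3′ UTR parts against 1582 counts on 3213 bases of coding parts. Short parts collect more counts per kb than long ones when reads count in every part they cross.

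Of the class IIb genes, Hdac6 encodes the cytoplasmic deacetylase of tubulin, cortactin and HSP90, and lies on the reverse strand of chromosome X, from 7930120 to 7947889, as ENSMUSG00000031161. Its level was 134, 118 and 107 CPM in the control and 114, 174 and 110.1 CPM in the delipidated replicates. Delipidated replicate 2 was the highest library, and the other delipidated libraries lay within the control range. The means were 119.5 ± 13.5 and 133 ± 35.9 CPM (SD, n = 3 each), and the log2 fold change of 0.15 ± 0.25 (SE) became -0.10 without delipidated replicate 2 and 0.26 without delipidated replicate 3. The ratio of Hdac2 to Hdac6, per kb, was 1.51, 1.12 and 1.51 in the control and 0.995, 0.560 and 2.03 in the delipidated replicates, so delipidated replicates 2 and 3 were the extremes on either side. Hdac10, known as a polyamine deacetylase, is listed as ENSMUSG00000062906 on the reverse strand of chromosome 15, from 89123307 to 89128700. It had 10.0, 5.26 and 1.60 CPM in the control and 9.68, 5.90 and 6.85 CPM in the delipidated replicates. All delipidated values lay inside the control range, and the log2 fold change of 0.41 ± 0.71 (SE) became -0.03 without control replicate 3, 1.13 without control replicate 1 and 2.26 by the part with most counts.

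Hdac11, the class IV enzyme known to remove long fatty acyl groups from lysine, is listed as ENSMUSG00000034245 on the forward strand of chromosome 6, from 91156665 to 91174692. It had 15, 64 and 11 counts in the control replicates and 0 in each delipidated replicate, which is 1.27, 3.87 and 0.836 CPM against 0. The groups did not overlap, which was known when the gene was chosen. Of the 9 tested genes, Hdac11 alone had every delipidated library below every control library, as did 5.05% of all tested genes, and none had every delipidated library above, against 3.81% of all. Because the same read can enter more than a single part, the part with the highest count gives the smallest number of reads behind a sum, and this was 15, 12 and 6 reads in the control. Against a floor of 3 reads per delipidated library, a mean of 0.181 CPM, the mean of these control reads was 4.50-fold higher. The ratio was 3.26-fold without control replicate 1, 4.75-fold without control replicate 2 and 5.49-fold without control replicate 3. The floor covers counting error only, and none is allowed for in the control reads. The gene was chosen with its 0 counts in the delipidated group known, so the ratio describes these values and supports no difference. Among the 30967 genes with any count, 28 (0.0904%) had at least 10 counts in every control library and 0 in every delipidated library, and 2 (0.00646%) had the opposite pattern.

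The position of the Hdac11 counts differed between the control libraries. In control replicate 1, all 15 counts lay on a coding part of 43 bases and its neighbours held 0. In control replicate 2, the 64 counts were spread over 10 parts, all in coding sequence. In control replicate 3, no count lay on a coding part: 6 lay on a part of 401 bases that is exonic only in transcripts without coding sequence there, and 5 on a 3′ UTR part shared with an opposite-strand gene. Opposite-strand parts held 5.56% of the counts of Hdac11 in all, all of them in control replicate 3. Without such parts the controls held 15, 64 and 6 counts of Hdac11 and it failed the filter, and it would not be among the 28 genes with 10 or more counts in all controls and 0 in the delipidated libraries. The coding part with most counts, 24 over the 6 libraries, is the part at chr6:91166243-91166285, forward strand, shown from the annotated transcript because it carries all counts of control replicate 1.
Hdac11 part: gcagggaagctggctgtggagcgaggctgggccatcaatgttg

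**Figure D3:**
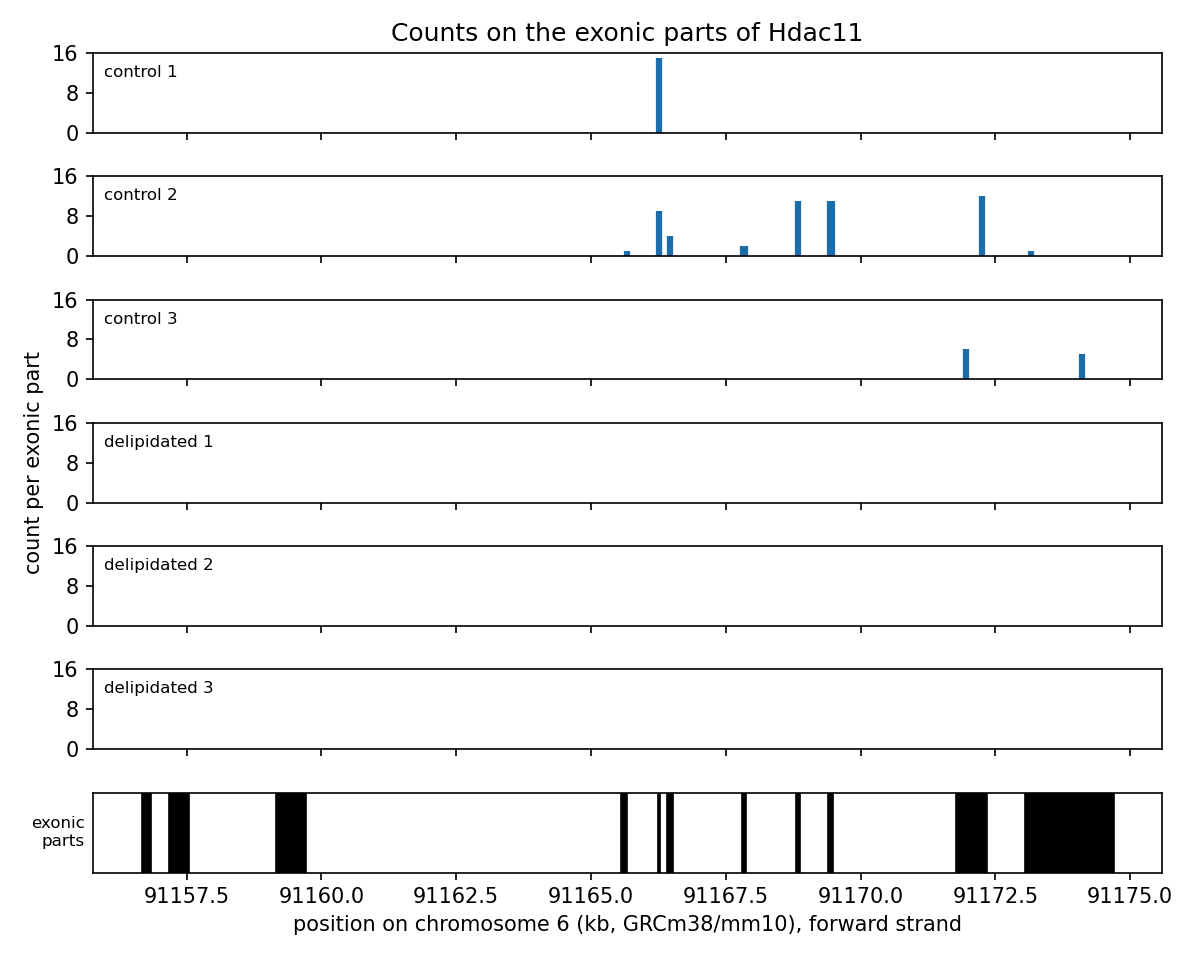
Counts on each of the 21 exonic parts of Hdac11 against position on chromosome 6 (kb), in a panel per library, with the parts drawn as black blocks in the lowest panel. Control replicates 1, 2 and 3 have counts on 1, 10 and 2 parts, and the delipidated libraries on 0.

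Markers of leukocytes and stromal cells are given beside Hdac11. The 8 leukocyte genes, 4 of them tested, summed to 14.8, 10.9 and 10.5 CPM in the control and to 6.67, 8.66 and 6.21 CPM in the delipidated libraries, so these sums did not overlap either. Coro1a was the most abundant at 3.39 CPM, and the pan-leukocyte gene Ptprc had 0.759, 0 and 1.60 CPM in the control and 0, 0 and 0.494 CPM in the delipidated libraries. Of the 4 tested, 3 had a negative and 1, Cd52, a positive log2 fold change, and of all 8, the mean was lower in the delipidated group for 6 and higher for Cd52 and Fcer1g. The 7 stromal genes, 3 of them tested, summed to 5.65, 10.1 and 6.16 CPM and to 1.93, 5.96 and 4.31 CPM, which overlapped, with Pdgfra the most abundant at 2.48 CPM. Of these 3, the collagen gene Col1a1 had an unadjusted p under 0.05, in the lower direction, at 0.00455, with an adjusted p of 1.00 from edgeR's quasi-likelihood test with Benjamini-Hochberg adjustment. It had 0.928, 1.57 and 3.19 CPM in the control and 0 in each delipidated library. Like Hdac11, Col1a1 passed the filter on low counts through the control libraries alone, which favours a low p in this direction, so nothing is read from its p. All 3 tested stromal genes had a negative log2 fold change, and of all 7, the mean was lower in the delipidated group for 5 and higher for Dcn and Thy1. The leukocyte and stromal sums were above the level of Hdac11 in CPM in every library. The part of these cell types, of depth and of the number of genes with a count in the Hdac11 values was not tested.

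The 10 genes showed no common direction. Of the 9 tested, 4 had a positive and 5 a negative log2 fold change, with a median of -0.19, against 8004 positive and 8016 negative and a median near 0 among all 16020 genes. EdgeR's quasi-likelihood test called 0 of the 9, with 0% of all genes called higher and 0% called lower, and DESeq2 with no filter called Hdac11 alone of the 10. Nothing is read from either count, because the genes were chosen with this comparison known. By edgeR's quasi-likelihood test, 0 genes were past an adjusted p of 0.05 with a log2 fold change beyond 1, while 184 genes (1.15%) had an unadjusted p under 0.05 in the higher and 279 (1.74%) in the lower direction. DESeq2 with no filter called 9 genes higher and 40 lower.

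Gm10093, annotated as a processed pseudogene, is a near-identical copy of the Hdac1 transcript and lies as ENSMUSG00000061062 on the forward strand of chromosome 17, from 78491565 to 78493541, in 1 exonic part. Its counts were 8, 43 and 17 for the control and 167, 115 and 48 for the delipidated replicates, or 0.675, 2.60 and 1.29 CPM against 8.25, 7.06 and 3.39 CPM. Every delipidated library was above every control library. The log2 fold change was 2.02 ± 0.85 (SE) and lay between 1.68 and 2.65 over the alternatives, the latter without control replicate 2. The unadjusted p was 0.0359 and the adjusted p 1.00 from edgeR's quasi-likelihood test with Benjamini-Hochberg adjustment, so the gene did not pass. Hdac1 itself, at 299 CPM in the delipidated mean, was far above Gm10093 at 6.23 CPM.

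Counts of Gm10093 are uncertain because of this likeness. Its annotated transcript of 1444 bases aligned to the Hdac1 transcript over its whole length, with 1435 identical bases, 9 mismatches and an identity of 99.4%. Of its 1295 windows of 150 bases, the length of a sequenced read end, 705 (54.4%) occur unchanged in Hdac1, so a read end inside them cannot be placed by its own sequence. By the study's methods, reads that map to a single place were counted, and how many reads of either gene were lost in this way was not tested. The counted part is 1977 bases long, and its bases outside the annotated transcript were not compared with Hdac1. The stretch of 60 bases richest in differences holds 5 of the 9 mismatches. It lies in Hdac1 coding sequence at chr4:129522975-129523034, reverse strand, and in Gm10093 at chr17:78492004-78492063, forward strand, and capitals mark the bases that differ.
Hdac1: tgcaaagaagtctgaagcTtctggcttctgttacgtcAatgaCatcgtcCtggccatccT
Gm10093: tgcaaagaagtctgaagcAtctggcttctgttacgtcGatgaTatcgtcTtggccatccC

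Genes with the most similar profiles over the 6 libraries were found among the 16020 tested genes by Pearson's r of log2(CPM + 1). For Hdac1 they were Ap5m1 with r = 0.995, B230307C23Rik with r = 0.991 and Brd3os with r = 0.991. Ap5m1 had 28, 91 and 32 counts for the control and 47, 64 and 68 for the delipidated replicates, so like Hdac1 it was high in control replicate 2 and delipidated replicates 2 and 3. Brd3os was at 0 in control replicates 1 and 3 and in delipidated replicate 1. For Hdac11 they were Maged1 with r = 0.983, Endog with r = 0.973 and Rpl10 with r = 0.973. Maged1 had 419, 918 and 490 counts for the control and 505, 386 and 373 for the delipidated replicates, with its peak in control replicate 2 as for Hdac11. These r values describe 6 libraries, for genes picked as the most alike of all tested.

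Partner genes were taken as lists, starting with the complexes that hold Hdac1, Hdac2 and Hdac3. None of the genes in the 10 partner lists was called by edgeR or by DESeq2 with no filter, and each list is given with its number of genes at an unadjusted p under 0.05, next to 1.15% higher and 1.74% lower among all genes. All adjusted p-values of the genes named here were 1.00 from edgeR's quasi-likelihood test with Benjamini-Hochberg adjustment.

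Of 12 NuRD genes, which join deacetylation to chromatin remodelling, 1 had such a p in the higher and 0 in the lower direction, and 9 log2 fold changes were positive, with a median of 0.11. The remodeller Chd3 had 47.5, 30.2 and 41.4 CPM in the control and 59.9, 68.5 and 78.1 CPM in the delipidated replicates, a log2 fold change of 0.79 ± 0.29 (SE) with an unadjusted p of 0.0197. Its groups did not overlap, and the log2 fold change turned to -0.15 with parts of at least 300 bases alone. Mbd3, the methyl-CpG-binding family subunit, had a log2 fold change of 0.42 ± 0.35 (SE). Rbbp7, a histone chaperone shared with Sin3, had the highest level at 158 CPM per kb of all exonic parts, above the 85.4 CPM per kb of Hdac1. Hdac1 was at 140.6 CPM per kb on the parts of the principal transcript, and Rbbp7 was not compared on these parts.

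Of 13 Sin3 genes, 0 had such a p in the higher and 1 in the lower direction, with a median log2 fold change of -0.07. Arid4b, a DNA-binding subunit, had 320, 348 and 339 CPM in the control and 271, 222 and 203 CPM in the delipidated replicates. Its groups did not overlap, and the log2 fold change was -0.53 ± 0.19 (SE) with an unadjusted p of 0.0166. Ing2, a reader of methylated histone H3, had -0.91 ± 0.48 (SE). The scaffold Sin3a had the highest level at 219 CPM per kb, with 1099 ± 221 CPM in the control and 1260 ± 126 CPM in the delipidated group (SD, n = 3 each).

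Of the CoREST and MiDAC genes, 9 of 10 were found and tested, without Mideas, and 0 had such a p in either direction. Dnttip1, the MiDAC scaffold, had a log2 fold change of 0.81 ± 0.48 (SE) that was 1.61 by the part with most counts, and the corepressor Rcor2 was highest at 40.3 CPM per kb. Of 6 NCoR and SMRT genes, which hold Hdac3, 0 had such a p in the higher and 1 in the lower direction. Gps2, a subunit that binds the corepressors directly, had 71.8, 184 and 143 CPM in the control and 100.2, 61.9 and 68.4 CPM in the delipidated replicates, with overlapping groups, a log2 fold change of -0.79 ± 0.34 (SE) and an unadjusted p of 0.0400. It also had the highest level of these genes, 65.4 CPM per kb, against 1.01 CPM per kb for Hdac3, and the corepressor Ncor1 had a log2 fold change of -0.13 ± 0.19 (SE), or 0.046 without delipidated replicate 1.

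Of 16 partners and kinases of the class IIa enzymes, 14 were tested, with 0 having such a p in the higher and 1 in the lower direction and a median log2 fold change of -0.03. The 14-3-3 gene Ywhab had 35.01, 45.8 and 50.6 CPM in the control and 19.9, 26.8 and 30.3 CPM in the delipidated replicates, without overlap, and a log2 fold change of -0.77 ± 0.34 (SE) with an unadjusted p of 0.0415. Ywhae, another 14-3-3 gene, was highest at 196 CPM per kb, and the kinase Sik2 had a log2 fold change of 1.05 ± 0.57 (SE) at 0.775 CPM per kb.

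The NAD-dependent deacetylases, the sirtuins, were led by Sirt1 at 59.2 CPM per kb of all exonic parts, between Hdac1 and Hdac2 on that scale. On the parts of the principal transcript Hdac2 was at 59.1 CPM per kb, and Sirt1 was not compared on these parts. All 7 sirtuins were tested, 0 had such a p in either direction, 2 log2 fold changes were positive and 5 negative, and the median was -0.35. Sirt5, a mitochondrial enzyme, had 0.675, 2.72 and 4.10 CPM in the control and 0.346, 0.430 and 0.918 CPM in the delipidated replicates, with overlapping groups and a log2 fold change of -2.14 ± 1.27 (SE). Sirt1 had -0.14 ± 0.20 (SE), and Sirt4 -0.83 ± 0.68 (SE), or -2.22 with parts of at least 300 bases.

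Of the 11 histone acetyltransferases, which oppose the deacetylases, 0 had such a p in either direction, and 10 of 11 log2 fold changes were negative, with a median of -0.16. Crebbp was highest at 87.4 CPM per kb of all exonic parts, next to 85.4 CPM per kb for Hdac1. Hdac1 was at 140.6 CPM per kb on the parts of the principal transcript, and Crebbp was not compared on these parts. The log2 fold change of Crebbp was 0.03 ± 0.18 (SE), or -0.15 without delipidated replicate 3. Naa40, which acetylates the N-termini of histones H2A and H4, had -0.46 ± 0.31 (SE), and Kat5 -0.64 ± 0.46 (SE), or -1.36 with parts of at least 300 bases.

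Of 14 BET proteins and other readers of acetylated lysine, 1 had such a p in the higher and 0 in the lower direction, with a median log2 fold change of -0.09. The BET gene Brd3 had 44.7, 100.4 and 42.4 CPM in the control and 164, 164 and 88.0 CPM in the delipidated replicates, with overlapping groups, a log2 fold change of 1.15 ± 0.37 (SE) and an unadjusted p of 0.0101. Brpf3 had -0.31 ± 0.24 (SE), or 0.40 by the part with most counts, and Yeats4 was highest at 143 CPM per kb.

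Of 10 genes of the cohesin acetylation cycle, in which Hdac8 acts, 0 had such a p in either direction, with a median log2 fold change of -0.03. Wapl, which releases cohesin, was highest at 300.04 CPM per kb, against 1.44 CPM per kb for Hdac8. The core subunit Smc1a had a log2 fold change of 0.32 ± 0.23 (SE), or -0.23 with parts of at least 300 bases, and Pds5b 0.30 ± 0.23 (SE).

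Of 14 genes for substrates and pathways of Hdac6, Hdac10 and Hdac11, 0 had such a p in either direction, with a median log2 fold change of -0.03. Srm, the spermidine synthase, had 8.10, 18.2 and 17.7 CPM in the control and 1.48, 4.61 and 11.9 CPM in the delipidated replicates, with overlapping groups and a log2 fold change of -1.29 ± 0.71 (SE), which was -2.27 without delipidated replicate 3, -0.83 without delipidated replicate 1 and -2.99 with parts of at least 300 bases. The tubulin acetyltransferase Atat1, which opposes Hdac6, had -0.60 ± 0.37 (SE), or 0.21 by the part with most counts, and the chaperone Hsp90ab1 was highest at 506 CPM per kb, against 21.7 CPM per kb for Hdac6.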

How the data were processed

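The authors deposited raw counts per exonic part for 6 libraries. The labels give a stranded total RNA kit with depletion of ribosomal RNA, and the submitters' processing notes name bcl2fastq 2.20, Trimmomatic 0.36, STAR 2.5.2b, featureCounts and mm10. At 11 places where parts of opposite strands coincide, counts had a median ratio of 1, so both strands were counted alike. Of 425461 parts, 33309 carried joined identifiers, and 27968 were assigned to the single gene whose exons they overlap in GENCODE vM21. The others, 2.49% to 2.57% of counts, were left out. Symbols were found for 49298 of 49644 identifiers. Genes were filtered with filterByExpr (minimum count 10) and tested with edgeR 4.0.16 (TMM, quasi-likelihood, no covariates) in R 4.3.3, with p-values adjusted by the Benjamini-Hochberg method over 16020 genes; called genes had an adjusted p under 0.05 and a size of log2 fold change above 1. The biological coefficient of variation was 0.663. The test was checked on simulated data. Tables were handled with Python 3.11.15 (Biopython 1.88), and sequences are those of GENCODE vM21 transcripts.

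The members and gene lists were chosen with earlier results of these data known. From each partner list the 2 tested genes with the smallest unadjusted p and the gene with the highest level per kb are named, with the 3 most similar profiles of Hdac1 and of Hdac11. A gene that this rule names is not reported here. Marker genes named apart from the most abundant are outside this rule and were picked once their values had been seen. The alternatives were DESeq2 1.42.0 with no filter, edgeR with DESeq2 size factors, edgeR with no filter or with genes of a mean count of 50 or more, the part with most counts, parts of at least 300 bases, no parts overlapping the opposite strand, library sizes without mitochondrial and rRNA genes, a replicate block, each library left out and CPM without log. The parts of the principal transcript were added after the data were seen.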

Additional observations from a re-analysis of the deposited data

How the results depend on the processing

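With edgeR's quasi-likelihood test, 0 genes were called higher and 0 lower. DESeq2 with no filter called 9 higher and 40 lower, and edgeR with no filter called 5 higher and 25 lower. The other alternatives, each library left out included, called 0 in each direction, and so did the fit with the replicate number as a replicate block, which called 0 higher and 0 lower. Same-numbered libraries did not pair, since the correlations of their deviations were -0.13, 0.11 and 0.07. The log2 ratio of the summed level of the 10 genes stayed within the spread of the replicates in every alternative run. With a library left out the sign turned for Hdac1, Hdac2, Hdac3, Hdac6 and Hdac10. Of Hdac9, Cdh1, Col1a1 and the named genes of the partner lists, the direction turned for Hdac9, whose log2 fold change lay between -0.11 and 0.79 with a library left out and was -0.0038 without delipidated replicate 2 and -0.0045 without delipidated replicate 3, for Ncor1, between -0.24 and 0.046, the positive value without delipidated replicate 1, for Rbbp7, between -0.11 and 0.22, for Crebbp, between -0.15 and 0.19, and for Yeats4, between -0.025 and 0.35. With parts of at least 300 bases Chd3 was at -0.15, Rbbp7 at -0.080, Brpf3 at 0.20 and Smc1a at -0.23, and with the part with most counts Brpf3 was at 0.40, Atat1 at 0.21 and Crebbp at -0.050; the cause was not tested. On CPM without log, 2 of the 3 profiles most like Hdac1 were the same genes, and 1 of the 3 for Hdac11. For genes with few counts, such as Hdac3, Hdac7 and Hdac11, depth limits what can be said.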
